A study of Bos taurus with 96 samples.

Results

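The response of the longissimus dorsi muscle (LD), the long back muscle of the rib and loin cuts, to early supplemental feeding was compared between 3 breeds of cattle. All 36 LD arrays were used, out of 96 arrays in the series, and they were chosen by their labels for tissue, breed and feeding. The question was whether the difference between supplement and pasture animals depended on the breed. The study itself set 5 fat depots side by side, with LD as the muscle in which the intramuscular fat (IMF) lies.

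All animals were steers. The labels give every LD array the same time of 259 d in a feedlot, so the arrays are labelled as muscle after a long period of grain feeding. The age entry of every array holds the same number of days, and an age at slaughter is not given per array. The supplement group had received supplemental feed and the other group had grazed pasture. The groups were Angus, Hereford and Wagyu x Angus, a cross, each with 4 supplement and 8 pasture arrays. The LD piece was taken with its IMF in situ, and each array measured total RNA of 1 labelled replicate. The study, however, used animals of an earlier and a later slaughter. Its own group names place the supplement LD groups of all 3 breeds in the earlier one and give each breed a pasture LD group of either. The time in the feedlot may therefore not have been the same for all 36, and nothing says which pasture arrays belong to which slaughter. With all 8 pasture arrays, supplement arrays of the earlier slaughter are set against pasture arrays of both, and the part of the slaughter in the differences was not tested. Nothing in the labels ties an LD array to an animal or a sire, so p-values measure the spread between these arrays.

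The 4 supplement arrays of each breed sat together on 1 slide, a glass holding 4 arrays, and that slide held no pasture array. The 8 pasture arrays of Angus lay on 2 slides, and those of either other breed on 3. In each breed 4 pasture arrays were scanned on the day of the breed's supplement arrays (same-day pasture) and 4 on another day (other-day pasture). Diet and slide therefore cannot be told apart within a breed, and slaughter, slide and scan day cannot be told apart among the pasture arrays. Between 66.3% and 81.1% of probes were well above background on an array, and no spot was saturated. The 75th percentile of the log2 signal ran from 8.51 to 9.61, and it was subtracted from every value of its array. Levels are given below as log2 signal relative to that percentile, and differences as supplement minus pasture in log2 units.

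Muscle fibres store energy as glycogen and burn fatty acids in their mitochondria, while the adipocytes between the fibres make and store triacylglycerol. Marbling is this intramuscular fat. Breeds differ in how early and how much of it they lay down, with Wagyu known for heavy marbling, and post-weaning feeding is one of the means used to raise it. In a whole muscle piece the RNA of fibres, adipocytes, vessels, nerves and connective tissue is measured together. The 11 measured skeletal myofibre markers averaged 7.71 to 8.63 over the 36 arrays, and each was well above background in every group.

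The breed by diet interaction, tested jointly over the 3 breeds, passed an adjusted p of 0.05 in limma for 5539 of 34227 probes, or 16.2%, and at an unadjusted p under 0.05 for 10926 (31.9%). The Hereford minus Angus difference of the feeding response carried most of it, with 7945 probes (23.2%), 4190 with the higher difference in Hereford and 3755 with the higher in Angus. The Wagyu x Angus minus Angus comparison gave 816 probes (2.38%), of which 575 (1.68%) had the lower difference in Wagyu x Angus and 241 (0.704%) the higher. Against the pasture arrays of the same scan day alone this split turned, with 1374 higher and 933 lower in Wagyu x Angus, or 59.6% higher in place of 29.5%. The Wagyu x Angus minus Hereford comparison gave 3 (0.00877%), all with the higher difference in Wagyu x Angus. This direction turned too, to 23 higher and 68 lower with the scan day as a block and 14 and 30 against same-day pasture. The probes past the joint test were selected for unlike responses, and 95.3% of them had differences of opposite sign in Angus and Hereford, beside 61.1% of all probes. The most frequent patterns were lower in Angus and higher in both other breeds (32.7%) and the reverse (28.3%).

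These counts depended on how the slides were treated. With the slide as a random block, where arrays of a slide correlated at 0.43, no probe passed the joint interaction test and 2135 passed unadjusted (6.24%). Under the same block 9 probes (0.0263%) passed for Hereford minus Angus, all lower in Hereford. None passed for Wagyu x Angus minus Angus (1636 unadjusted, 4.78%) or for Wagyu x Angus minus Hereford (296 unadjusted, 0.865%). With the scan day as a fixed block 2970 passed the joint test (8.68%). Against the same-day pasture arrays alone 3331 passed (9.73%), against the other-day pasture arrays alone 15161 (44.3%), and 1555 probes passed both with the same signs. The pasture arrays of the 2 scan days also differed from each other, by 10225 probes in Angus (29.9%), 10013 in Hereford (29.3%) and 6614 for Wagyu x Angus (19.3%), with the diet being the same.

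**Figure D1:**
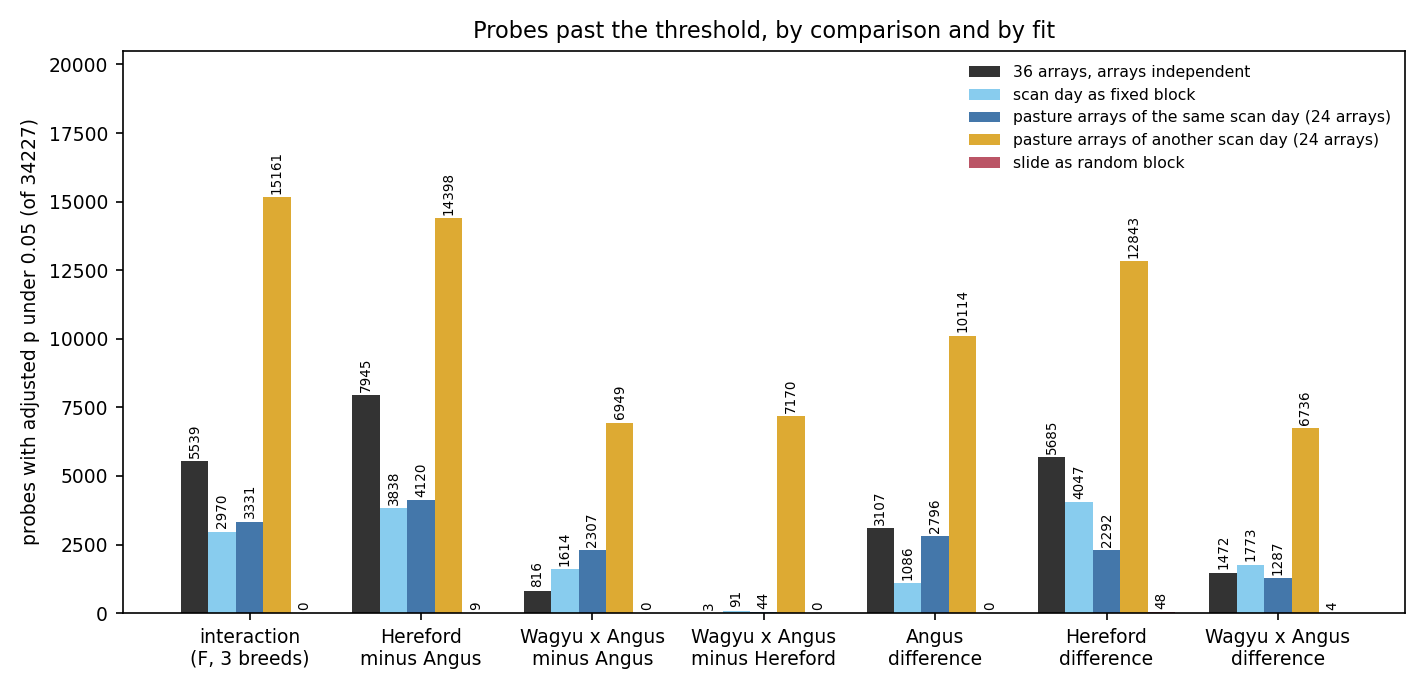
Number of probes with an adjusted p under 0.05 (vertical axis, of 34227) for the joint interaction, the 3 pairwise interactions and the difference within each breed. Bars stand for the fit with independent arrays, scan day as a block, the pasture arrays of the same or of another scan day alone, and slide as a random block. The bars against the other-day pasture arrays are the tallest in all 7 comparisons, up to 15161, and those with the slide block are the lowest, between 0 and 48.

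Within the breeds, Hereford gave the largest number of probes with a feeding difference and Wagyu x Angus the smallest. In Angus 3107 probes passed (9.08%), 1429 higher (4.18%) and 1678 lower (4.9%) on the supplement. In Hereford 5685 passed (16.6%), 2861 higher (8.36%) and 2824 lower (8.25%). In Wagyu x Angus 1472 passed (4.3%), 544 higher (1.59%) and 928 lower (2.71%), so that 37.0% of its calls were higher. That last split moved with the scaling, to 75.9% higher on the deposited log2 values scaled to the same percentile and to 3.95% on those values unscaled, where the median over all probes was itself -0.35. On the unscaled values the share of higher calls was 61.5% in Angus (46.0% here), 5.85% in Hereford (50.3%), 18.1% for Hereford minus Angus (52.7%) and 0.694% for Wagyu x Angus minus Angus (29.5%, and 50.4% on the percentile-scaled deposited values). With the slide as a random block no probe passed in Angus (2236 unadjusted, 6.53%). In Hereford 48 passed (0.14%), all lower, and 2765 unadjusted (8.08%). Wagyu x Angus gave 4 (0.0117%), 3 lower (0.00877%) and 1 higher (0.00292%), with 1356 unadjusted (3.96%). Averaged over the breeds, supplement differed from pasture for 4634 probes (13.5%), 2293 higher (6.7%) and 2341 lower (6.84%), and under the block for 8, all lower (0.0234%).

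The order of the breeds also changed with the pasture arrays and the block. Against same-day pasture Angus gave 2796 probes (8.17%), Hereford 2292 (6.7%) and the Wagyu cross 1287 (3.76%), and with the scan day as a block they gave 1086, 4047 and 1773. The 4 supplement and 8 pasture values did not overlap for 1968 probes in Angus (5.75%), 2189 in Hereford (6.4%) and 1611 for Wagyu x Angus (4.71%). Of the 648 probes past the threshold in both Angus and Hereford (20.9% of the Angus and 11.4% of the Hereford calls), 70 had the same sign. Angus and Wagyu x Angus shared 177, or 5.7% and 12% of their calls, and 136 of these had the same sign. Hereford and Wagyu x Angus shared 717, 12.6% of the Hereford and 48.7% of the Wagyu x Angus calls, and 714 had the same sign. Across all probes, which are not independent replicates, the differences correlated at r = -0.29 between Angus and Hereford, 0.21 between Angus and Wagyu x Angus and 0.39 between Hereford and Wagyu x Angus. Against same-day pasture the 3 values were -0.15, -0.06 and 0.48, and against other-day pasture -0.41, 0.20 and 0.28. The Hereford and Wagyu x Angus supplement slides were scanned on the same day as each other, and the Angus supplement slide on another. The same-day pasture arrays of Hereford and Wagyu x Angus lay mixed on the same 2 slides, apart from those of Angus. Their other-day pasture arrays lay on separate slides, and r was 0.28 there. The part of the shared slides in these values was not tested.

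The genes with the smallest interaction p shared one pattern, in which the supplement arrays lay lower than pasture in Hereford and Wagyu x Angus and not in Angus. Of the 12 such genes, all had negative differences in both of those breeds and positive ones in Angus. They encode proteins of unlike roles. ARHGAP30, a GTPase activating protein, had the smallest p of the joint interaction in limma (adjusted p = 4.71e-07). Its 4 supplement arrays read -1.83, -1.92, -2.01 and -1.80 in Angus, against -2.64, -2.44 and -2.18 as the lowest, median and highest of the 8 pasture arrays. In Hereford they read -3.27, -2.86, -3.14 and -2.93, against -2.49, -2.16 and -1.90 on pasture. In Wagyu x Angus they lay between -3.02 and -2.95, against -2.37, -2.13 and -1.86. The groups did not overlap in any breed, with the supplement arrays above pasture in Angus and below it in the others. The differences were 0.53 in Angus, -0.86 in Hereford and, for Wagyu x Angus, -0.88, each with an SE of 0.10 and an adjusted p of 0.00282, 3.04e-06 and 5.26e-06. One of the 3 other ARHGAP30 probes had the opposite sign, with 2 alike.

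SLC25A31, the ADP/ATP carrier of the mitochondria in the germ line, passed the joint test with an adjusted p of 1.09e-06. The Hereford supplement arrays read -7.77, -7.58, -7.55 and -6.66, and the pasture arrays -4.72 to -4.08 with a median of -4.30. The Wagyu x Angus supplement arrays read -6.50, -6.29, -6.03 and -7.39, and the pasture arrays -4.45 to -3.27 with a median of -4.06. Both supplement groups lay wholly below pasture, and there no array had the probe well above background. The difference is therefore a bound, at least 3.76-fold lower in Hereford (adjusted p = 6.32e-08) and at least 4.41-fold lower in Wagyu x Angus (adjusted p = 1.54e-06). Such a bound sets the mean of the brighter group against the higher of each dim array's own value and its lowest signal well above background. In Angus the supplement arrays read -3.68, -4.41, -4.25 and -3.73 and the pasture arrays -5.51 to -3.98, which overlap, and the difference of 0.82 ± 0.29 had an adjusted p of 0.0678. Against same-day pasture, which lay between -5.51 and -5.37, the Angus difference was 1.42, and against other-day pasture 0.23.

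SLC25A31, LYPLAL1, an enzyme related to lysophospholipases, ARHGAP30 and LAS1L, which acts in ribosomal RNA processing, were the named genes among the 9 probes that kept a Hereford minus Angus call with the slide as a random block. LAS1L was named after its value was seen. Their adjusted p under that block lay between 0.0375 and 0.0489. LYPLAL1 read -4.14, -3.87, -3.78 and -3.76 on the Hereford supplement arrays and -3.01 to -2.48 on pasture, and -2.64, -2.50, -2.51 and -2.44 on the Angus supplement arrays against -3.44 to -2.66. The Angus supplement arrays lay above all Angus pasture arrays and the Hereford ones below all Hereford pasture arrays. In Wagyu x Angus its difference was -0.69 ± 0.15 (adjusted p = 0.00402), and both other LYPLAL1 probes agreed in sign.

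Of the 12 genes 4 encode transcription factors. DLX5, a homeobox factor of bone and limb, fell in Hereford (adjusted p = 1.36e-07) and, by a difference of -1.13, in Wagyu x Angus. It was not well above background on any Hereford supplement array, where it read -7.00, -6.37, -6.94 and -6.87 against -4.89 to -3.55 on pasture, so that its level was at least 3.38-fold lower. NPAS1, a basic helix-loop-helix factor of neurons, had a difference of -2.19 ± 0.23 in Hereford and -1.03 in Wagyu x Angus, and its 1 other probe did not agree in sign. HEYL, a transcriptional repressor downstream of Notch, differed by -1.02 in Hereford and -1.38 in Wagyu x Angus, and its other probe did not agree either. PATZ1, a zinc finger factor, differed by 0.64 ± 0.12 in Angus, -0.71 ± 0.12 in Hereford and -0.49 for Wagyu x Angus, all past the threshold, and 1 of its 2 other probes agreed in sign. In Angus the PATZ1 supplement arrays, at -1.41, -1.44, -1.72 and -1.27, all lay above pasture at -2.27 to -1.93.

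The remaining members of the 12 had the same signs. FMO2, a flavin-containing monooxygenase, read -1.63, -1.88, -2.09 and -1.61 on the Angus supplement arrays and -3.20, -3.17, -2.82 and -3.18 on the Hereford ones. It differed by 0.49 in Angus and -1.04 in Wagyu x Angus, and by -1.49 between Hereford and Angus, all past the threshold. PEX7, the receptor that brings enzymes into peroxisomes, differed by 0.57 in Angus, -0.92 in Hereford and -0.52 in the Wagyu cross, also all past the threshold. RP1, a microtubule protein of photoreceptors, was at least 4.15-fold lower in Hereford. REG3G, an antimicrobial lectin, was at least 2.89-fold lower in Hereford and at least 2.96-fold lower in Wagyu x Angus. PTK7, a receptor of the WNT planar polarity pathway, was at least 2.54-fold lower in Hereford, though its other probe had the opposite sign. In Angus RP1, REG3G and PTK7 did not pass, with differences of 0.63, 0.62 and 0.50.

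**Figure D2:**
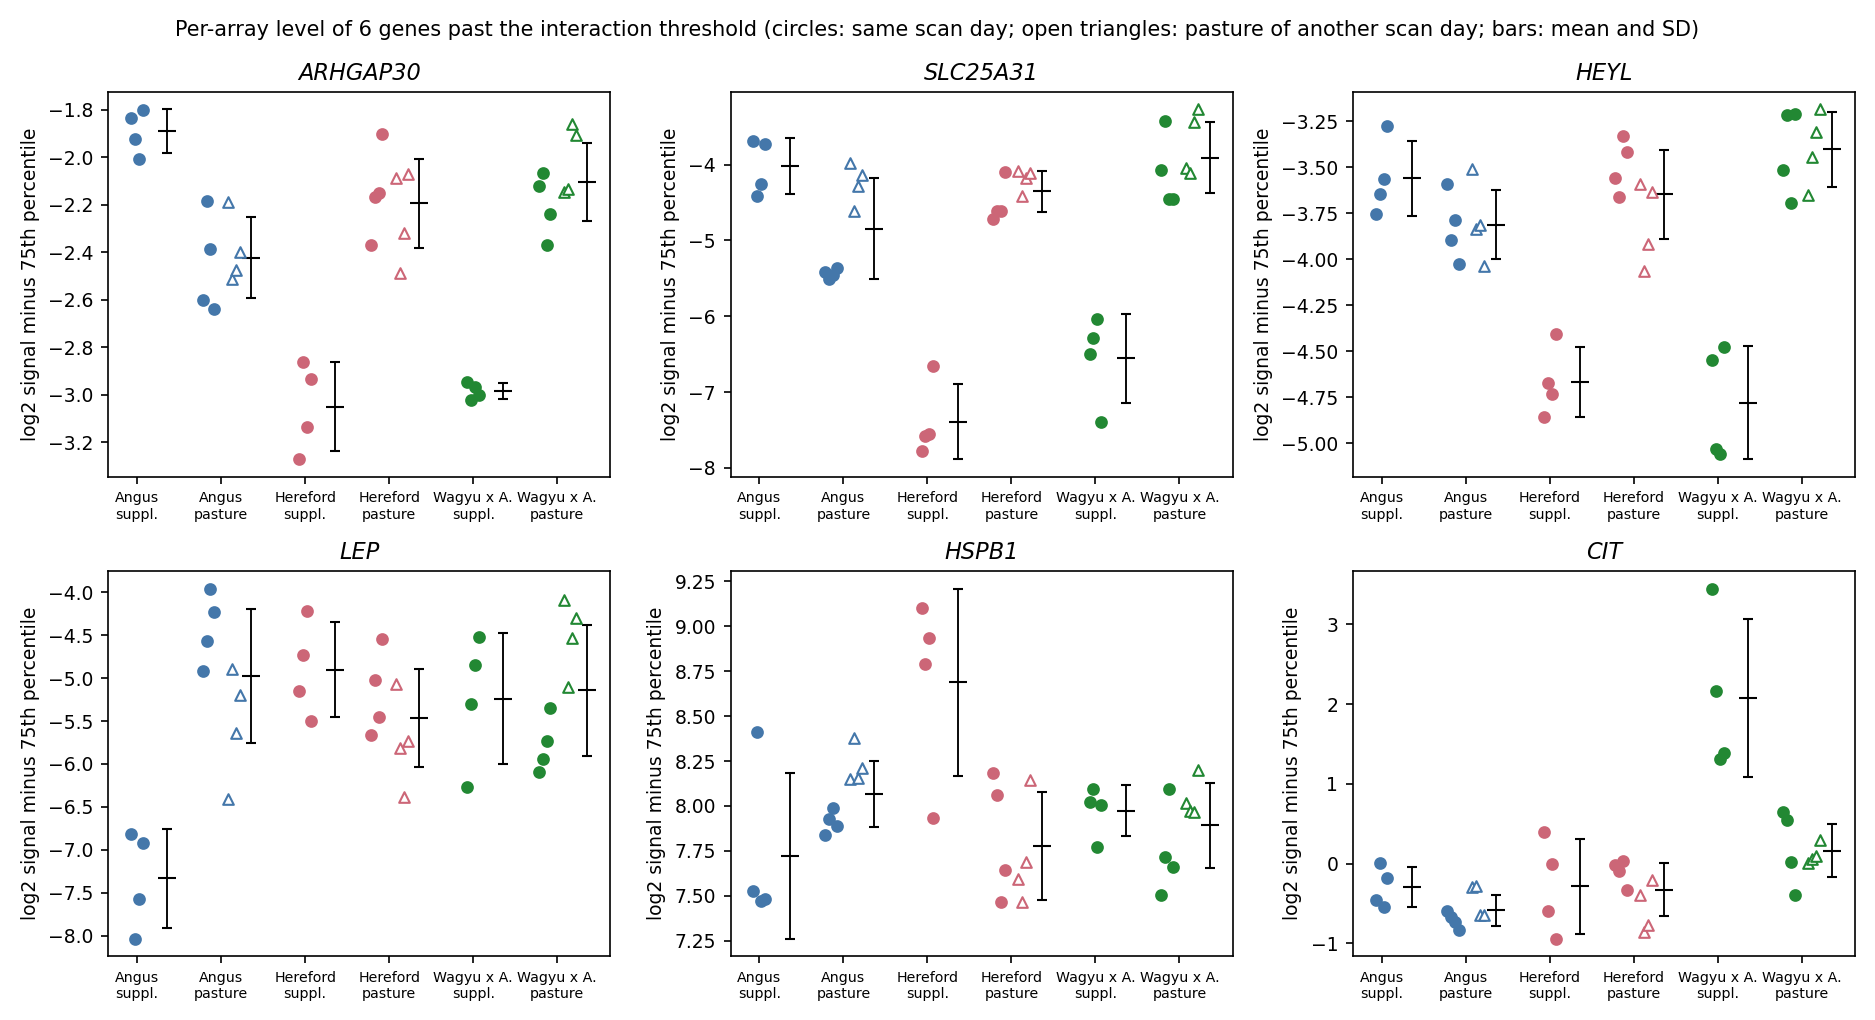
Level on each array (vertical axis, log2 signal minus the 75th percentile of the array) of 6 genes past the joint interaction threshold, by breed and diet. Filled circles are supplement arrays and pasture arrays of the same scan day, open triangles are pasture arrays of another scan day, and bars give the mean and SD of the 4 or 8 arrays. ARHGAP30, SLC25A31 and HEYL lie low in the Hereford and Wagyu x Angus supplement groups, LEP in the Angus supplement group, and CIT lies high in the Wagyu x Angus supplement group from 1.31 to 3.45.

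Adipocyte genes fell on the supplement in Angus. Of 11 measured adipocyte markers 9 fell and none rose there, beside 4.9% of all probes that fell, and their median difference was -2.58 against -0.01 over all probes. In Hereford AQP7, a glycerol channel, rose and ADIG fell, with a median of -0.03, and in Wagyu x Angus ADIG fell, with a median of -1.36. The joint interaction passed for 4 of the 11, LEP, AQP7, TRARG1 and PLIN1, beside 16.2% of all probes. With the scan day as a block the Hereford minus Angus value of AQP7 was 0.57 in place of 1.06 (adjusted p = 0.154). With the slide as a random block none of these 9 falls and none of the 4 joint calls passed. Of all the gene lists described here, MX2 in Hereford was the one member that passed in any breed under that block. Fewer adipocytes and less RNA per adipocyte cannot be told apart in whole muscle.

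The pasture arrays set the size of these differences. The mean of the 11 markers lay between -2.27 and -1.54 on the Angus supplement arrays, -2.55 and -0.96 on the Hereford and -2.37 and -1.21 on the Wagyu x Angus supplement arrays, so the 3 supplement groups overlapped. The Angus pasture arrays lay between -0.54 and 1.20, above all Angus supplement arrays. The Hereford pasture arrays lay between -2.26 and -0.34 and overlapped with the supplement. The Wagyu x Angus pasture arrays fell into separate sets by scan day, between -2.13 and -1.02 on the day of the supplement arrays and between 0.20 and 1.37 on the other. The median difference of the list in Wagyu x Angus was accordingly 0.06 against same-day and -2.82 against other-day pasture, where 9 of the 11 were past the threshold and lower, beside 9.73% of all probes. In Angus it was -2.97 and -2.19, with 10 and 9 markers lower beside 5.11% and 13.9% of all probes, and in Hereford 0.13 and -0.19.

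**Figure D3:**
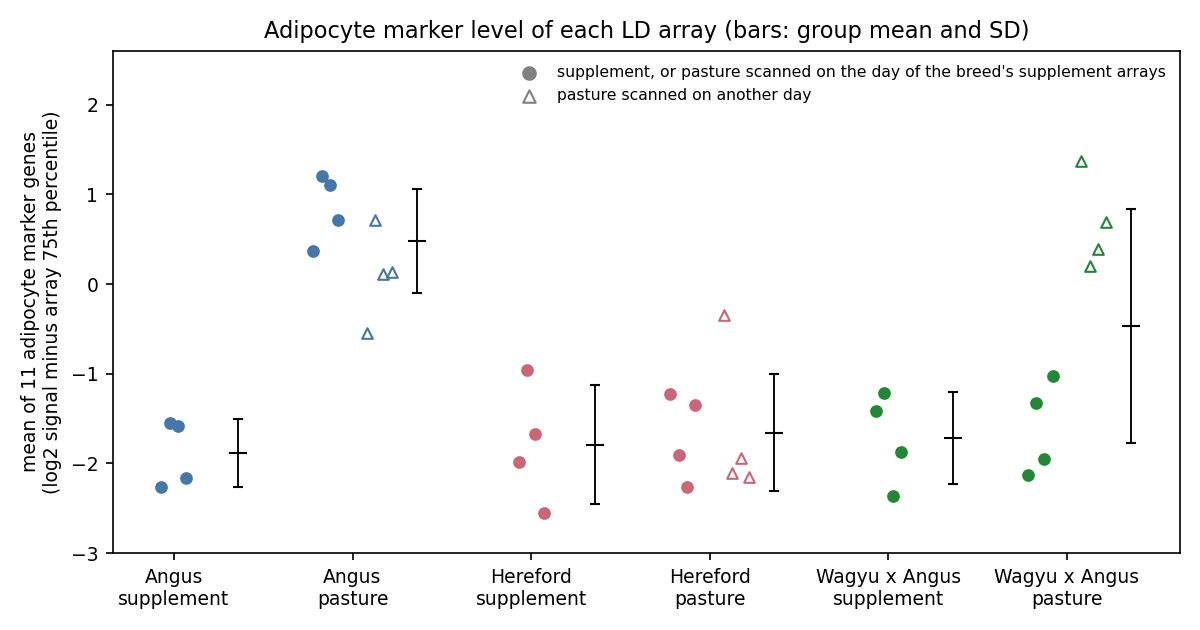
Mean level of 11 adipocyte marker genes on each LD array (vertical axis, log2 signal minus the 75th percentile of the array), by breed and diet. Filled circles are supplement arrays and pasture arrays scanned on the same day, open triangles are pasture arrays of another scan day, and bars give the mean and SD of the 4 or 8 arrays. All Angus pasture arrays lie above the Angus supplement arrays, and the Wagyu x Angus pasture arrays split by scan day around 0.

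LEP, the gene of the satiety hormone leptin, had the smallest interaction p of the list (adjusted p = 0.00242). Its Angus supplement arrays read -6.81, -8.04, -7.57 and -6.92, below all Angus pasture arrays, whose lowest, median and highest values were -6.41, -4.90 and -3.96. The probe was not well above background on any Angus supplement array and was on 6 of the 8 pasture arrays, which made leptin at least 2.39-fold lower (adjusted p = 0.00168). In Hereford its 4 supplement arrays read -5.15, -4.73, -4.22 and -5.50 and overlapped with pasture at -6.39 to -4.54, with a difference of 0.56 ± 0.41 (adjusted p = 0.352). In Wagyu x Angus the difference was -0.10 ± 0.41.

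Among genes past the threshold without overlap between the Angus diet groups, the largest differences were those of lipid droplet and lipogenic genes. THRSP, a nuclear factor that promotes lipogenesis, read -5.25, -4.76, -5.45 and -5.51 on supplement and -1.60, -0.40 and 0.94 as the lowest, median and highest on pasture, a difference of -4.91 ± 0.96 (adjusted p = 0.00274). CIDEC, which fuses lipid droplets, differed by -4.40 ± 0.83, and a second CIDEC probe, the one in the marker list, by -3.85. PLIN1, the coat protein of the adipocyte droplet, read -3.70, -2.59, -2.13 and -3.62 against -1.25 to 1.26, a difference of -3.14 ± 0.61 (adjusted p = 0.00274). None of these overlapped between the Angus groups, as their choice required. Their differences in Hereford were -0.69, 0.63 and -0.24 and did not pass. The Hereford minus Angus value was 4.23 for THRSP (adjusted p = 0.0236), 5.03 for CIDEC (0.00302) and 2.90 for PLIN1 (0.0159), although THRSP missed the joint test at 0.0705. TRARG1, a membrane protein that moves the glucose transporter GLUT4 in fat cells, differed by -3.09 in Angus and 0.12 in Hereford. ACSM1, a medium-chain acyl-CoA synthetase, differed by -3.57 in Angus and -0.11 in Hereford and missed the joint test at 0.0878. With the scan day as a block its Angus difference was -3.02 and did not pass (adjusted p = 0.0527).

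ADIPOQ, which encodes adiponectin, and FABP4, the fatty acid carrier of adipocytes, fell in Angus, with differences of -2.58 (adjusted p = 0.0198) and -2.94 (0.0274), and missed the joint test at 0.24 and 0.128. PPARG, the master regulator of adipogenesis, had an Angus difference of -0.79 (adjusted p = 0.0608). ADIG, a small protein of adipocyte differentiation, was the exception in the list, since it fell in every breed, with differences of -1.31, -1.72 and -1.61. Its adjusted joint interaction p in limma was 0.839.

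Fatty acid synthesis genes followed the adipocyte markers in part. Of 12 measured members 4 fell in Angus (SCD, ELOVL6, ME1 and FASN) and FADS2 rose, none passed in Hereford, and in Wagyu x Angus SCD fell and FADS2 rose. Over all probes 4.9% fell and 4.18% rose in Angus, and 2 of the 12, or 16.7%, passed the joint test beside 16.2% of all probes. The medians were -0.56, 0.05 and -0.29. SCD, the desaturase that makes oleic acid, passed the joint test at 0.0179. It read 3.00, 2.08, 2.10 and 2.46 on the Angus supplement arrays against 3.49 to 4.68 on pasture, and 2.59, 2.24, 2.22 and 2.63 on the Wagyu x Angus ones against 3.00 to 4.71. Supplement lay wholly below pasture in both, with differences of -1.56 ± 0.29 and -1.50 ± 0.29, while in Hereford the groups overlapped and the difference was -0.12. All 6 other SCD probes agreed in sign. ELOVL6, which lengthens palmitate, differed by -2.32 ± 0.49 in Angus (adjusted p = 0.00449) and 0.24 in Hereford. With the mean of the adipocyte markers as a covariate the Hereford minus Angus calls of SCD and ELOVL6 were lost, at 0.58 in place of 1.44 (adjusted p = 0.279) and 0.54 in place of 2.56 (0.327). FASN, the fatty acid synthase, differed by -1.63 in Angus (adjusted p = 0.00519) and did not pass the joint test (0.0807). FADS2, the delta-6 desaturase, rose by 0.90 in Angus and 0.78 in Wagyu x Angus, the opposite direction to the other members called.

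Of 9 triacylglycerol synthesis genes, LPIN1, the phosphatidate phosphatase, was the one past the joint test (0.0327), beside 16.2% of all probes, with differences of -0.69, 0.54 and -0.20, none of them past the threshold within a breed. GPAT3, an acyltransferase of the first step, was the one that rose in Hereford, beside 8.36% of all probes, by 1.64 ± 0.51. The supplement arrays read 3.17, 1.34, 1.53 and -0.25, and the lowest of them lay among the pasture arrays at -1.11 to 0.86. Without the first of these arrays the GPAT3 difference was 1.07 (adjusted p = 0.204), and the call was lost when any 1 of 4 arrays was left out. Of 10 lipolysis and lipid droplet genes 2 fell and 1 rose in Angus, beside 4.9% and 4.18% of all probes, and 1 rose in Hereford, close to the 8.36% of all probes that rose there. LIPE, the hormone-sensitive lipase, passed the joint test (0.0124), with -1.10 ± 0.29 in Angus (adjusted p = 0.0175), 0.61 in Hereford and 0.00 for Wagyu x Angus. Its Angus supplement arrays, at -2.37, -2.13, -2.11 and -2.47, lay below all pasture arrays at -1.80 to -0.34. For LIPE the Hereford minus Angus value was 0.92 with the scan day as a block in place of 1.71 (adjusted p = 0.0542) and 1.08 with the adipocyte covariate (0.0732), under which LPIN1 also lost its call (0.81, 0.124). PDE3B, the phosphodiesterase through which insulin restrains lipolysis, fell in Angus with a difference of -1.63 ± 0.53 (adjusted p = 0.0477), a call that was lost when any 1 of 22 arrays was left out. It did not pass with the scan day as a block (-1.66, adjusted p = 0.0602) or with the adipocyte covariate (0.33, 0.721).

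Of 19 genes of fatty acid uptake and oxidation, 5 fell in Angus (HADHA, UCP3, LPL, CPT2 and ECHS1), beside 4.9% of all probes, and none passed in Hereford or in Wagyu x Angus. HADHA, a subunit of the mitochondrial trifunctional protein, and UCP3, the muscle uncoupling protein, passed the joint test at 0.0136 and 0.0325, 2 of 19 beside 16.2% of all probes. Their Hereford minus Angus calls did not hold with the scan day as a block (adjusted p = 0.0923 and 0.184) or with the adipocyte mean as a covariate (0.0502 and 0.0898). HADHA read 3.25, 3.33, 3.17 and 3.53 on the Angus supplement arrays, below all pasture arrays at 3.55 to 4.26, with a difference of -0.52 ± 0.15. UCP3 differed by -0.81 ± 0.23 in Angus and 0.26 in Hereford. LPL, the lipase that frees fatty acids from lipoproteins, differed by -1.11 ± 0.30 in Angus and missed the joint test (0.141). The list medians were -0.26, 0.15 and -0.17 for Angus, Hereford and Wagyu x Angus.

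When the adipocyte mean of each array was added as a covariate, 208 probes passed in Angus in place of 3107, 6070 in Hereford, 775 in Wagyu x Angus and 4330 for the joint interaction. Across the Angus arrays that mean did not overlap between the diets, so it stood in part for the diet itself. An Angus call could thus be lost with little change in size, as for CFAP100 at 2.42 in place of 2.44. The covariate holds the adipocyte markers themselves, so their own differences under it are fixed by its make-up and are not given. LPL, which is not in it, had an Angus difference of -0.03 (adjusted p = 0.961), and -0.78 with the scan day as a block (0.0793). The Hereford minus Angus call of SLC25A31 still passed with the covariate (adjusted p = 3.45e-05). For each of the 74 named genes 1 comparison was followed through the other fits, and 70 of these passed at first. Of the 70, 37 still passed in the same direction with the covariate, 52 with the scan day as a block and 4 with the slide as a random block (SLC25A31, LYPLAL1, MX2 and FUT6). The markers LEP, AQP7, TRARG1, PLIN1 and THRSP are among the 70, so the count of 37 is in part fixed by the make-up of the covariate.

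Heat shock and chaperone genes rose in Hereford. Of 12 measured members 7 rose there (CRYAB, HSPB1, HSPB8, HSPA8, BAG3, HSPH1 and DNAJA1), beside 8.36% of all probes that rose, and none passed in Angus or Wagyu x Angus. The medians were 0.51 in Hereford, -0.30 in Angus and 0.02 in Wagyu x Angus, and all 12 had negative differences in Angus. The joint interaction passed for 6, the 7 above without DNAJA1, beside 16.2% of all probes. With the slide as a random block none of the rises and none of the joint calls passed. HSPB1, a small heat shock protein that protects the fibre's actin, read 9.10, 8.79, 8.93 and 7.93 on the Hereford supplement arrays against 7.46 to 8.18 on pasture. The groups overlapped through the last supplement array alone, and the difference was 0.91 ± 0.18 (adjusted p = 0.00154). In Angus HSPB1 read 7.53, 8.41, 7.47 and 7.48 against 7.84 to 8.38, where 3 supplement arrays lay below pasture and 1 above it, with a difference of -0.35 (adjusted p = 0.233). CRYAB, the alpha-B crystallin chaperone, read 8.45, 8.36, 8.43 and 7.83 in Hereford on the supplement, against 7.19 to 8.16, a difference of 0.55 ± 0.14 (adjusted p = 0.00797). One Wagyu x Angus supplement value of CRYAB was missing, which left 3. HSPA8, the constitutive HSP70, and HSPB8 with its partner BAG3, which clear damaged fibre proteins, rose in Hereford by 0.47, 1.02 and 0.57. The same Hereford supplement array, at position 4, was the lowest of its 4 for CRYAB, HSPB1, HSPA8, BAG3, HSPH1 and HSPB8, and against same-day pasture alone no member passed the joint test and 2 rose in Hereford (2.43% of all probes). Against other-day pasture 7 passed the joint test, beside 44.3% of all probes. Between Hereford and Angus the calls of BAG3 and HSPB8 were lost with the scan day as a block (adjusted p = 0.0700 and 0.0989) and those of BAG3, HSPB8 and HSPH1 with the adipocyte covariate (0.0692, 0.0587 and 0.0959).

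Smooth muscle genes of the vessel wall had lower values on the supplement than on pasture in Angus. Of 6 measured, 3 fell there (ACTA2, MYLK and CNN1) and the same 3 passed the joint test, beside 4.9% and 16.2% of all probes, with medians of -0.85 in Angus, 0.22 in Hereford and 0.02 for Wagyu x Angus. MYLK, the myosin light chain kinase, read 1.80, 2.14, 1.96 and 1.92 on the Angus supplement arrays against 2.30 to 3.91, without overlap, and differed by -0.97 ± 0.21 (adjusted p = 0.00572). ACTA2, the smooth muscle actin, differed by -0.85 ± 0.22 in Angus and 0.48 ± 0.22 in Hereford (adjusted p = 0.131). With the adipocyte mean as a covariate the Hereford minus Angus calls did not hold, at 0.92 for ACTA2 (adjusted p = 0.0550), 0.63 for MYLK (0.124) and 1.41 for CNN1 (0.0873). The CNN1 call was also lost with the scan day as a block (0.0809).

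Endothelial markers showed no interaction past the threshold and had higher values on the supplement in every breed. All 7 measured had positive differences in each, with medians of 0.57, 0.29 and 0.40. In Angus 5 rose (ESAM, CDH5, CLDN5, KDR and PECAM1), in Wagyu x Angus 2 (CDH5 and KDR), and in Hereford none, beside 4.18%, 1.59% and 8.36% of all probes. None of these rises passed with the slide as a random block. ESAM, a junction protein of endothelial cells, read 1.57, 1.11, 1.28 and 1.22 on the Angus supplement arrays, all above pasture at 0.16 to 0.77, with a difference of 0.81 ± 0.15 (adjusted p = 0.00207). The adipocyte mean was lower on the same arrays, and with it as a covariate the ESAM difference was 0.53 and did not pass (adjusted p = 0.103). The mean of the 7 markers lay between 0.61 and 0.95 on these arrays and between -0.14 and 0.58 on Angus pasture.

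Matrix genes likewise had no member past the joint test. Of 15 measured, COL4A1, COL4A2 and SPARC rose in Hereford and POSTN, COL4A2 and COL1A2 in Wagyu x Angus, beside 8.36% and 1.59% of all probes, with medians of 0.42 and 0.43, against 0.09 in Angus. COL4A1 and COL4A2 are the chains of basement membrane collagen and POSTN is a matrix protein of growing connective tissue. COL4A2 rose by 0.93 in Hereford (adjusted p = 0.00214) and 0.66 in Wagyu x Angus (adjusted p = 0.0489). POSTN read -1.91, -2.27, -1.47 and -1.21 on the Wagyu x Angus supplement arrays and -3.81 to -1.99 on pasture, which overlap at 1 supplement array, with a difference of 1.34 ± 0.37 (adjusted p = 0.0322). With the scan day as a block the POSTN difference was 0.94 (adjusted p = 0.172), with the adipocyte covariate 1.13 (0.157), and the call was lost when any 1 of 7 arrays was left out.

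Genes of the fibres themselves had few members past the threshold when all pasture arrays were used. None of 11 myofibre markers, 8 slow and 10 fast fibre genes or 16 genes of the respiratory chain and citrate cycle passed the joint test, beside 16.2% of all probes. TNNC1, the slow troponin C, rose in Hereford by 0.28 ± 0.10 (adjusted p = 0.0429), ACTN3, the alpha-actinin of fast fibres, rose in Wagyu x Angus by 0.76 ± 0.21 (adjusted p = 0.0317), and SDHA, a subunit of succinate dehydrogenase, fell in Angus with -0.37 ± 0.12 (adjusted p = 0.0455). They were the members of the slow fibre, fast fibre and respiratory lists that passed within a breed, beside 8.36%, 1.59% and 4.9% of all probes in those directions. Without the supplement array at position 3 the SDHA difference was -0.23 (adjusted p = 0.262), with the scan day as a block -0.20 (0.332), and the call was lost when any 1 of 10 arrays was left out. The calls of TNNC1 and ACTN3 were lost when any 1 of 9 and any 1 of 8 arrays was left out. Neither passed with the scan day as a block, at 0.30 for TNNC1 (adjusted p = 0.0582) and 0.45 for ACTN3 (0.132), and ACTN3 did not with the adipocyte covariate either (0.45, 0.274). The ACTN3 difference was 0.29 against same-day and 1.23 against other-day pasture. The mean of the myofibre markers in Wagyu x Angus was 8.52 to 8.63 on supplement, 8.39 to 8.54 on same-day and 7.85 to 8.09 on other-day pasture, against which 9 of the 11 rose, beside 9.95% of all probes, and 7 passed the joint test, beside 44.3%. The myofibre median in that breed was 0.34 and that of the glycolysis list 0.37, and against other-day pasture 7 of the fast fibre and 12 of the glycolysis genes passed that joint test. Of 17 genes of glycolysis and glycogen 1 passed the joint test, beside 16.2% of all probes. It was SLC2A4, the insulin-responsive glucose transporter (0.035), which rose in Hereford by 0.81 ± 0.21. Its Hereford supplement arrays read 0.18, -0.34, -0.97 and -1.18 and the pasture arrays -2.10 to -0.95, so that 2 supplement arrays lay within the pasture range.

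**Figure D4:**
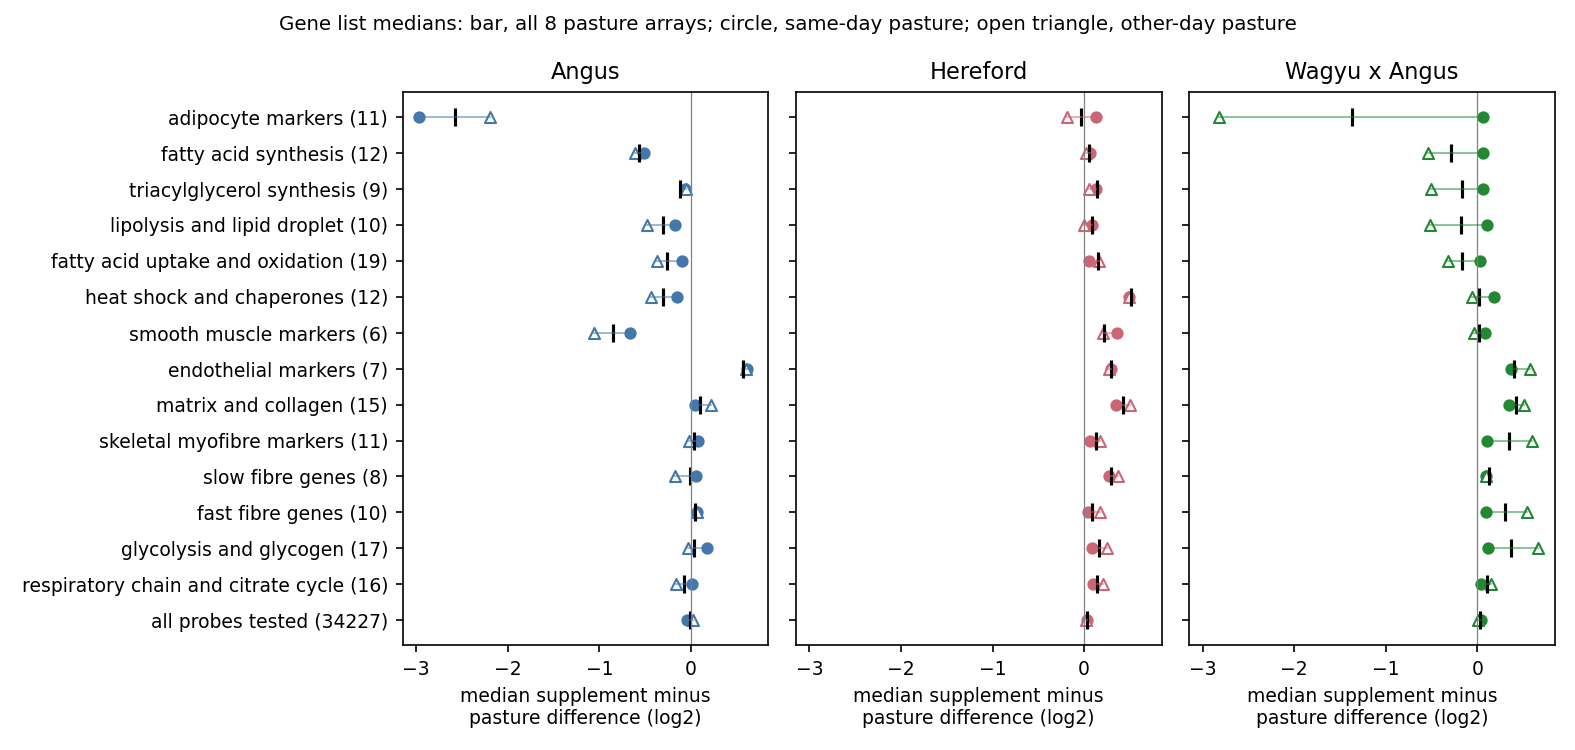
Median supplement minus pasture difference (horizontal axis, log2) of 14 gene lists and of all probes in each breed, with the number of measured genes in brackets. Bars use all 8 pasture arrays, filled circles the 4 of the same scan day and open triangles the 4 of another day. The adipocyte list lies at -2.58 in Angus and -0.03 in Hereford, and in Wagyu x Angus it moves from 0.06 to -2.82 with the pasture arrays used.

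Among the largest single differences within Hereford, taken from genes whose diet groups did not overlap there, several were in the opposite direction in Angus. SELENOW, a small selenoprotein abundant in muscle, read 4.00, 3.46, 3.41 and 4.13 on the Hereford supplement arrays, above all pasture arrays at 1.17 to 2.22, a difference of 2.03 ± 0.49 (adjusted p = 0.00608). In Angus it read 3.05, 3.36, 2.44 and 3.01, below all pasture arrays at 4.42 to 5.21, a difference of -1.83 ± 0.49 (adjusted p = 0.0189). The Hereford minus Angus value was 3.86 ± 0.69 (adjusted p = 0.000415). In Wagyu x Angus the supplement arrays, at 3.37 to 3.89, lay between same-day pasture at 1.48 to 2.08 and other-day pasture at 4.71 to 4.88. The 12 supplement arrays of the 3 breeds lay between 2.44 and 4.13, and the pasture arrays between 1.17 and 5.21.

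HAAO, a dioxygenase of tryptophan breakdown, differed by 2.13 ± 0.31 in Hereford (adjusted p = 3.72e-05) and -1.03 ± 0.31 in Angus (adjusted p = 0.033), with an interaction p of 8.2e-05. Its Hereford supplement arrays read -3.47, -3.74, -3.86 and -3.97, all above pasture at -6.80 to -4.37. KCNAB3, a potassium channel subunit, PAG8, a pregnancy-associated glycoprotein, and KRT80, a keratin, had differences of 2.11, 2.06 and 2.40 in Hereford. KRT80 missed the joint test (0.0547) and read 0.97, -1.93, -3.97 and -4.24 there, and without the first of these arrays its difference was 1.31 (adjusted p = 0.105).

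On the lower side in Hereford stood SLC25A31 and 4 genes that were not well above background on any of its supplement arrays. CCR1, a chemokine receptor of myeloid cells, was at least 5.43-fold lower, MX2, an interferon-induced GTPase, at least 4.00-fold, UCP1, the uncoupling protein of brown fat, at least 2.43-fold, and FUT6, a fucosyltransferase, at least 2.08-fold. MX2 read -6.77, -8.00, -6.15 and -5.84 against -4.79 to -3.64 on pasture. UCP1 was well above background on 4 of the 8 Hereford and 6 of the 8 Wagyu x Angus pasture arrays, and FUT6 on 6 of the 8 Hereford ones. CCR1, MX2, UCP1 and FUT6 had differences of 0.02, 0.01, 0.03 and 0.58 in Angus, none past the threshold, and all 4 passed the joint test. Of 9 interferon-stimulated genes MX2 was the only one past the joint test, beside 16.2% of all probes. The list as a whole lay higher on the supplement, with medians of 0.73 for Angus, 0.97 for Hereford and 1.21 for the Wagyu cross. In each breed 7 of the 9 genes had positive differences, so the lower MX2 in Hereford was opposite in direction to its list. RSAD2, an antiviral enzyme, rose in Hereford and in Wagyu x Angus, MX2 also fell in Wagyu x Angus, IFI6 rose in Hereford and OAS1X in Angus. Over all probes 8.36% rose in Hereford, 1.59% rose and 2.71% fell in Wagyu x Angus, and 4.18% rose in Angus.

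In Wagyu x Angus CIT, the citron kinase of cell division, rose. It read 3.45, 2.17, 1.31 and 1.39 on supplement and -0.39 to 0.65 on pasture, a difference of 1.92 ± 0.27 (adjusted p = 4.2e-05). In Angus and Hereford the differences were 0.30 and 0.04, and the Wagyu x Angus minus Angus value of 1.62 passed (adjusted p = 0.0151), while that minus Hereford, 1.87, did not (adjusted p = 0.107). With the scan day as a block the value minus Hereford was 2.01 and passed (adjusted p = 0.0112). PFN3, a profilin, was the named gene past the Wagyu x Angus minus Hereford test, at 1.30 (adjusted p = 0.0478). It read -0.71, -0.79, -1.07 and -1.06 on the Wagyu x Angus supplement arrays, above pasture at -2.13 to -1.18, and -2.48, -2.03, -2.02 and -2.29 on the Hereford ones, below pasture at -1.93 to -1.40. The call was lost when any of 29 arrays was left out. MFSD13A, a membrane transporter family member, had the next of the small p-values there, with -0.91 (adjusted p = 0.107). With the scan day as a block both passed, MFSD13A at -0.89 (adjusted p = 0.0118) and PFN3 at 1.30 (0.00122).

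NOS2, the inducible nitric oxide synthase, rose at least 3.09-fold in Wagyu x Angus, where none of the 8 pasture arrays had it well above background. In Angus it also passed, but 1 of the 8 pasture arrays alone had it well above background, so no size is given, and the joint interaction missed the threshold (0.0688). DTX2, a ubiquitin ligase of the Notch pathway, rose in Angus by 2.26 and in Wagyu x Angus by 2.10 and did not pass in Hereford (0.29), with an interaction p of 0.0153. CD40, a receptor of B cells, and CHST6, a sulfotransferase, rose in Wagyu x Angus by 1.97 and 1.85, with interaction p-values of 0.348 and 0.258. The CD40 call was lost when any 1 of 10 arrays was left out and with the adipocyte covariate (1.38, adjusted p = 0.266), and without the supplement array at position 1 the CHST6 difference was 1.28 (adjusted p = 0.193). CHIA, an acidic chitinase, ROR2, a WNT receptor, and TNNI3K, a kinase of heart muscle, were at least 1.48-fold, at least 2.53-fold and at least 2.57-fold lower in Wagyu x Angus, and all 3 also passed in Hereford and for the joint test. On pasture in Wagyu x Angus CHIA was well above background on 4 and ROR2 on 5 of the 8 arrays, so these bounds rest in part on arrays where the probe was dim in both groups.

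The highest Angus differences were again taken among genes without overlap between the diets. They were led by PRL, the prolactin gene (2.52), ESM1, a proteoglycan of endothelial cells (2.51), and PER2, a clock repressor (2.44). CFAP100, a protein of cilia (2.44), and DTX2 came next. CFAP100 passed the joint test (0.00157), and PRL, ESM1 and PER2 did not, at 0.0916, 0.0923 and 0.283. PRL read -5.61, -2.77, -2.78 and -5.64 on the Angus supplement arrays against -8.32 to -5.78, a pair of arrays standing far above the other 2. Without the supplement array at position 2 the PRL difference was 2.04 (adjusted p = 0.0893), and without that at position 3 the ESM1 difference was 2.09 (0.0994). With the scan day as a block PRL differed by 1.58 (adjusted p = 0.163) and ESM1 by 1.87 (0.152). With the adipocyte mean as a covariate none of PRL, ESM1, PER2 and CFAP100 passed, at 2.16 (0.154), 1.33 (0.389), 0.99 (0.483) and 2.42 (0.0578). The size for CFAP100 hardly changed from 2.44. PER2 read -4.24, -3.83, -3.78 and -3.68 against -7.81 to -4.75.

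Some further genes were the only members of their lists past the joint test. GADD45A and IGF1 passed within a breed but not jointly. CDKN1A, the p21 inhibitor of the cell cycle, differed by -1.15 ± 0.36 in Angus and 0.90 ± 0.36 in Hereford (adjusted p = 0.0425 and 0.0842, joint 0.0107). With the adipocyte covariate its Hereford minus Angus value was 0.93 in place of 2.05 (adjusted p = 0.149). GADD45A, a stress gene linked to muscle atrophy, fell in Angus and in Wagyu x Angus, with differences of -2.26 and -1.51, and missed the joint test at 0.0735. ZFP36, an immediate early gene that destabilises messenger RNA, differed by -0.78 in Angus, past the threshold, and 0.35 in Hereford. With the adipocyte covariate the Hereford minus Angus call of ZFP36 was lost (adjusted p = 0.0597), as was the Angus call of GADD45A (0.0678). CHRNA1, the acetylcholine receptor subunit of the neuromuscular junction, and MBP, a myelin protein, had differences of 0.55 and 0.99 in Angus and -0.65 and -0.67 in Hereford, none of them past the threshold within a breed. With the scan day as a block the Hereford minus Angus value went from -1.19 to -0.30 for CHRNA1 (adjusted p = 0.432) and from -1.66 to -1.10 for MBP (0.127). HBM, a globin gene, fell in Hereford with -0.96 ± 0.23 (adjusted p = 0.00596). IGF1, the growth factor, rose in Angus by 0.53 ± 0.14 (adjusted p = 0.0157) and just missed the joint test at 0.0521. With the adipocyte covariate the IGF1 difference was 0.34 (adjusted p = 0.254). No member of the slow fibre, macrophage, tendon, circadian or insulin and IGF lists passed the joint test, among 8, 8, 4, 9 and 9 measured genes and beside 16.2% of all probes.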

How the data were processed

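RNA of 36 LD samples had been hybridised to 1-colour Agilent bovine arrays. The authors scanned and quantified them with Agilent Feature Extraction 10.7.3.1, per the file headers, and deposited a background-corrected signal intensity (gProcessedSignal) for each spot. A deposited log2 table of the same arrays equalled log2 of the median signal minus the background median, with a floor of 1, for all 1232172 LD values within 0.001. The log2 of the intensity minus the 75th percentile of each array was tested, as an average over spots of a probe, for the 34227 probes of that table, out of 43653 non-control probes. Outlier spots were left out, which gave 253 missing values. Of these probes 21445 could be named, for 10653 genes.

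Means of the 6 breed and diet groups were fitted over the 36 arrays in limma 3.58.1 (R 4.3.3, lmFit and eBayes). The contrasts were supplement minus pasture in each breed, its average, its pairwise differences between breeds and their joint F test, with Benjamini-Hochberg adjustment over all probes and a threshold of 0.05. Where a gene has several probes, the text gives 1 probe and counts the others that agree in sign. Genes were named as those with the smallest p for the interactions, the highest and lowest differences within each breed and the members past a threshold in gene lists. Those differences were ranked among genes past the threshold whose supplement and pasture arrays did not overlap. Their probe also had to be well above background on enough arrays of the brighter group. The lack of overlap of these genes was therefore fixed by the choice. The groups, genes and lists were chosen with earlier results of these data known. Replicate numbers in the labels are slide positions and were not used as pairs. Residuals of arrays at the same position of different slides correlated at a median of 0.03 (range -0.11 to 0.16, 128 pairs). These pairs run across breeds and diets, so the value cannot tell whether equal numbers mark the same animal. Each array is 1 sample, and the number of arrays limits the precision. The scripts were tested on simulated data. Alternatives were other scalings and background corrections, filters on dim probes, slide and scan day as blocks, subsets of the pasture arrays, the adipocyte mean as a covariate, each breed alone, the methods' t-test and leaving out each array. One result of the lipolysis list is not reported here.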

Additional observations from a re-analysis of the deposited data

Results flagged for a closer look

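The feeding response differed between breeds for 5539 probes by the joint interaction test of limma, and 54 of the 74 named genes were among them. With the slide as a random block none of the 5539 passed.

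Among the genes past that test, the Hereford minus Angus difference of the response was negative for ARHGAP30 (-1.39), SLC25A31 (-3.86), HEYL (-1.27), FMO2 (-1.49), RP1 (-2.93), PATZ1 (-1.35), DLX5 (-2.90) and LYPLAL1 (-1.69). The same sign was found for REG3G (-2.35), NPAS1 (-2.60), PEX7 (-1.49), PTK7 (-2.07), PFN3 (-0.88), CIT (-0.25), CFAP100 (-3.77) and DTX2 (-1.97). It was also negative for UCP1 (-2.84), CCR1 (-2.83), MX2 (-2.46), FUT6 (-2.94), CHIA (-2.17), ROR2 (-2.10), TNNI3K (-2.03), CHRNA1 (-1.19), HBM (-1.03) and MBP (-1.66). For SLC25A31, RP1, DLX5, REG3G, PTK7, UCP1, CCR1, MX2, FUT6, CHIA and TNNI3K no Hereford supplement array had the probe well above background, so these values, which come from the fit, give a direction and no exact size.

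The Hereford minus Angus difference was positive for the fat and lipid genes CIDEC (5.03), PLIN1 (2.90), TRARG1 (3.21), LEP (2.92), AQP7 (1.06), SCD (1.44), ELOVL6 (2.56), LPIN1 (1.23), LIPE (1.71), HADHA (0.86) and UCP3 (1.07). The AQP7, LIPE, HADHA and UCP3 values did not pass with the scan day as a block, nor did those of SCD, ELOVL6, LPIN1, LIPE, HADHA and UCP3 with the adipocyte mean as a covariate. For LEP no Angus supplement array was well above background, and its value has no exact size either. It was positive for the heat shock genes CRYAB (0.92), HSPB1 (1.25), HSPA8 (0.77), BAG3 (0.90), HSPH1 (1.52) and HSPB8 (1.10), and for the smooth muscle genes ACTA2 (1.33), MYLK (1.17) and CNN1 (1.85). The remaining positive values belonged to MFSD13A (0.80), HAAO (3.16), KCNAB3 (2.59), PAG8 (3.14), SELENOW (3.86), SLC2A4 (0.90), CDKN1A (2.05) and ZFP36 (1.14), of which CDKN1A and ZFP36 did not pass with the covariate.

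Single arrays stood apart from the rest of their group by Dixon's test in 25 of 444 combinations of a named gene and a group, and chance gives about 1 in 20. In the Angus supplement group the array at position 2 was high for CRYAB (8.03), HSPB1 (8.41) and HSPA8 (6.58), that at position 3 for ESM1 (-1.51), and that at position 4 was low for CDKN1A (1.52). In the Hereford supplement group the array at position 4 was low for CRYAB (7.83), that at position 1 was high for ESM1 (-2.94) and MYLK (2.81), that at position 2 for THRSP (-4.32) and that at position 3 for FMO2 (-2.82). In the Wagyu x Angus supplement group position 1 was low for PRL (-7.91), and position 2 was high for CNN1 (2.25) and low for ESAM (0.71).

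Among the pasture arrays, Angus ones were low for CFAP100 (-7.03) and high for NOS2 (-5.45), ZFP36 (2.98) and CNN1 (4.14). Hereford ones were high for DLX5 (-3.55), UCP1 (-2.04), TNNI3K (-3.34), ELOVL6 (-3.05) and LPIN1 (-0.53). The same Wagyu x Angus array was low for KCNAB3 (-7.24), PAG8 (-3.79) and COMP (-3.24).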

How the results depend on the processing

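Counts of probes past the threshold are given in the order joint interaction, Hereford minus Angus, Wagyu x Angus minus Angus, Wagyu x Angus minus Hereford, then Angus, Hereford, Wagyu x Angus and their average (4634 probes). With the slide as a random block they were 0, 9, 0, 0, 0, 48, 4 and 8. With the scan day as a block the first 5 were 2970, 3838, 1614, 91 and 1086. Against same-day pasture the joint test gave 3331, the pairs 4120, 2307 and 44, and Hereford 2292. Against other-day pasture all 8 were 15161, 14398, 6949, 7170, 10114, 12843, 6736 and 9568. With the adipocyte mean as a covariate Wagyu x Angus minus Angus gave 1292, Wagyu x Angus minus Hereford 1, Angus 208, Wagyu x Angus 775 and the average 1362. The deposited log2 values gave 850, 1281, 432, 1, 109 and 1402 for the first 6, and on the percentile scale 0 for Wagyu x Angus minus Hereford and 2591 in Wagyu x Angus. The methods' t-test gave 1576 in Angus and 1605 in Hereford. Breeds fitted alone gave 1788 in Angus, 2283 in Hereford and 1 for Wagyu x Angus minus Hereford. That last comparison gave 11 with normexp and quantile scaling, 7 with quantile scaling, 6 over all non-control probes, and 0 over probes well above background on all arrays, which was chosen after seeing the data. The causes were not tested. The remaining counts lay within 1.5 times.

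Leaving out each array gave 3583 (without Angus supplement position 3) to 6383 probes for the joint interaction and 3496 to 5156 for the average. The pairs gave 5739 to 8681, 520 to 1011 (520 and 521 without Wagyu x Angus supplement positions 3 and 4) and 0 to 92 (92 without Hereford supplement position 4). Angus ranged from 1441 to 3730, lowest without supplement position 1 (1517 without position 2 and 1836 without position 3). Hereford ranged from 2114 to 6749, lowest without supplement position 1 (3493 and 3527 without positions 2 and 3). Wagyu x Angus ranged from 676 to 1750, lowest without supplement position 4 (919 without position 3).

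With the replicate block, by slide position, the 8 counts were 5480, 7906, 753, 3, 2956, 5791, 1337 and 4553. Of the 70 named genes whose followed comparison passed, 4 still passed in the same direction under the slide block, 52 under the scan day block, 37 with the adipocyte covariate and 68 with quantile scaling. The 37 include markers that are themselves part of the covariate. TNNC1 in Hereford turned to -0.073 on the deposited values, and ACSM1 and PDE3B in Angus turned to 0.39 and 0.33 with the adipocyte covariate.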

Other observations

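Among all probes the median size of the supplement minus pasture difference was 0.23 for Angus, 0.27 for Hereford and 0.19 for the Wagyu cross, beside a median SE of 0.19. Of probes well above background on all 36 arrays 17.1% passed the joint interaction test, and 13.7% of those above background on some arrays.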
